A study of Homo sapiens with 18 samples.

Results

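Transcripts of 8 immediate early genes were followed in 3 pancreatic cancer cell lines after 6 h with the CDK7 inhibitor THZ1: EGR1, EGR2, EGR3, IER2, IER3, IER5, SRF and NR4A1. They were chosen by name from the 17026 endogenous genes of the table, and each had a row. EGR1 and IER2 had been seen to respond differently by line, so their values are given as a description with no test. Of the other 6, 5 were abundant enough to be tested. On the scale the values were deposited in, IER2 and IER3 were several times higher with THZ1 than with DMSO in BxPC-3 and EGR1 was not. In MIA PaCa-2, EGR1, EGR3, IER2, IER3 and IER5 were all higher and NR4A1 was lower. In PANC-1, EGR1 was lower in every THZ1 library, and limma called none of the tested members.

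The lines, BxPC-3 and MIA PaCa-2 beside PANC-1, are established human pancreatic ductal adenocarcinoma cells, each given DMSO or 100 nM THZ1 for 6 h, with 3 biological replicates in each of the 6 groups and 18 libraries in all. All 3 lines were grown in the same serum-containing F12 medium with β-glycerophosphate and ascorbic acid, so every group carries those supplements. THZ1 binds covalently to CDK7, a kinase within TFIIH that acts at the start of transcription, and also to CDK12 and CDK13. DMSO is its solvent. Where 3 values are given for the lines without names, they stand in the order BxPC-3, then MIA PaCa-2, then PANC-1.

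Immediate early genes are transcribed within minutes of a growth or stress signal, without new protein synthesis. The signal often runs through the ERK cascade to SRF, a transcription factor that binds CArG boxes in promoters together with ETS-family cofactors such as ELK1 or with the actin-sensing MRTF cofactors (MKL1 and MKL2). EGR1, EGR2 and EGR3 are zinc finger transcription factors, NR4A1 is an orphan nuclear receptor, IER2 and IER5 belong to a family of nuclear regulators, and IER3 is an unrelated short-lived protein that acts on ERK signalling and cell survival. Their mRNAs are mostly short-lived, so that their levels follow ongoing transcription closely.

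The upstream sequences of 4 members are shown: those of EGR1, EGR2 and SRF because they hold the binding motif of SRF, itself a member, and that of IER2, which holds none, beside them. They were taken from the RefSeq promoter table (GRCh38.p14, a build other than the hg19 of the reads), which held windows for 6 of the 8 members. EGR3 and IER3 had none. Each is the 250 bases before the RefSeq transcription start, 5′ to 3′ on the gene's strand, with CArG boxes, ETS cores and EGR sites in capitals. The windows lie at chr5:138465229-138465478 on the plus strand for EGR1, chr10:62816367-62816616 on the minus strand for EGR2 (the start furthest downstream), chr6:43171019-43171268 on the plus strand for SRF (the start furthest upstream) and chr19:13150161-13150410 on the plus strand for IER2.
EGR1: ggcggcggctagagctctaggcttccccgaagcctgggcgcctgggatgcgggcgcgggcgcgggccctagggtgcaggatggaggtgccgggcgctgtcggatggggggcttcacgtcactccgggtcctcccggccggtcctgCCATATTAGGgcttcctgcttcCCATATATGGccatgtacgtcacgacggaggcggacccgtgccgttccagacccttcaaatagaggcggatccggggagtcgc
EGR2: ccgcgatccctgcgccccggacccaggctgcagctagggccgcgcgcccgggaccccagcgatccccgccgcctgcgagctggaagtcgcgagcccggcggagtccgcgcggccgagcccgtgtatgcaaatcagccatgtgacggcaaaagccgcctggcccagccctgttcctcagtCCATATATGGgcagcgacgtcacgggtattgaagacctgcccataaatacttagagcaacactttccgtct
SRF: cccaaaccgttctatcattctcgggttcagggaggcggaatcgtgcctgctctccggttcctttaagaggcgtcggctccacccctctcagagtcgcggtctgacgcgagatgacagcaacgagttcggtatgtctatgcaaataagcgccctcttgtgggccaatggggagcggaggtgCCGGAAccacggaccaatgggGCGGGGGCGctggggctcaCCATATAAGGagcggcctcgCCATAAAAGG
IER2: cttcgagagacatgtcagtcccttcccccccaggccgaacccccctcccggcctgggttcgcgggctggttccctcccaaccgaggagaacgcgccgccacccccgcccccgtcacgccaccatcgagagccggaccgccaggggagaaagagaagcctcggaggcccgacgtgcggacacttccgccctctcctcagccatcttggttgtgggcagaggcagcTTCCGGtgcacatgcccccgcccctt

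Exact matches to 7 motifs were sought on both strands: the CArG box, the ETS core CCGGAA, the CRE TGACGTCA, its core TGACG (which also lies within every CRE), the AP-1 site TGACTCA, the EGR site GCGGGGGCG or GCGTGGGCG, and the TATA box TATAAA. EGR1 held CArG boxes whose first bases lay at -105 and -83, counted from the start, EGR2 held 1 at -71, and SRF held 2, at -30 and -10. Of the 35116 windows of the same length in the table, 1.16% held a CArG box. SRF also held an ETS core at -70 and an EGR site at -49, motifs found in 14.5% and 5.37% of all windows. IER2 held an ETS core at -26 on the opposite strand, IER5 held 1 at -74 and NR4A1 1 at -17 of its upstream window, and none of these 3 genes had a CArG box in the windows searched. CRE cores, present in 21.2% of all windows, occurred in EGR1, EGR2, IER2 and SRF. No window of the 6 members searched held a whole CRE, an AP-1 site or the TATAAA letters. Of all windows, 1.65%, 4.2% and 10.7% held these. A match is a run of letters and not a measured binding site.

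**Figure D1:**
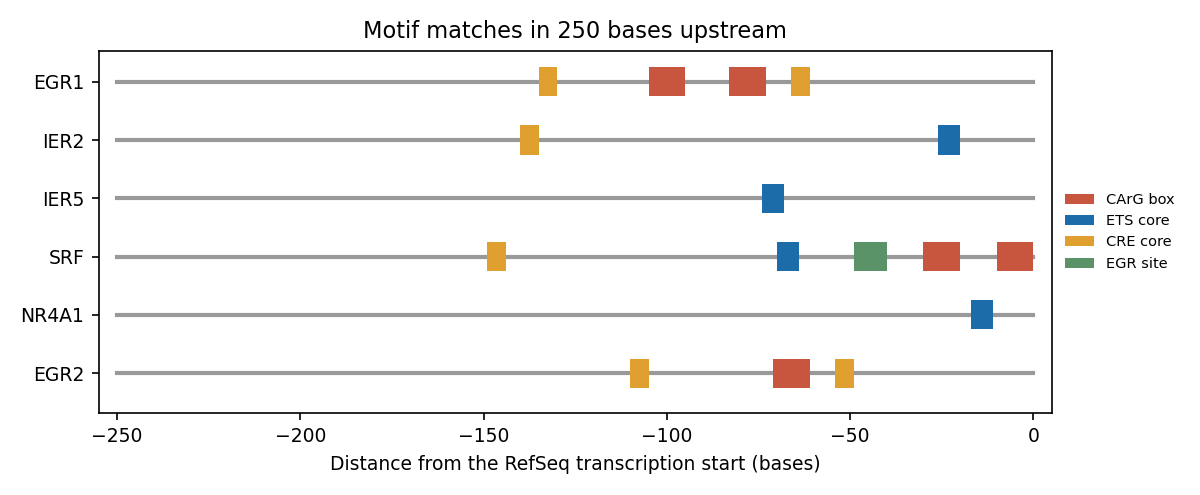
The horizontal axis gives the distance in bases from the RefSeq transcription start for 1 window each of EGR1, IER2, IER5, SRF, NR4A1 and EGR2, and coloured blocks mark matches to 4 motifs. CArG boxes appear in EGR1 (-105 and -83), SRF (-30 and -10) and EGR2 (-71), and ETS cores in IER2, IER5, SRF and NR4A1.

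Libraries held between 6352482 and 20910423 recovered reads. Levels are deposited values multiplied by 1 constant so that the mean library sums to 1e+06, called rescaled units below, and 1 unit stood for 6.34 to 24.7 reads. On this deposited scale the library sums differ: with THZ1 the mean endogenous sum was 1.66 times that with DMSO in BxPC-3, 1.57 times in MIA PaCa-2 and 0.989 times in PANC-1. The median log2 fold change over the 15354 genes tested was 0.25, 0.19 and -0.07 in the 3 lines. With libraries brought to equal sums it was -0.29, -0.30 and -0.06, and with libraries scaled to their ERCC spike-ins, added to the extracted RNA, it was -0.64, -0.85 and -0.31. Responses of the members are therefore given on the deposited scale and also relative to the median gene. PANC-1 DMSO replicate 1 stood apart: it was the shallowest library, its genes lay 0.52 log2 units (SD of residuals) from their group mean against 0.10 to 0.31 in the other 17, and 1.95% of its reads were mitochondrially encoded mRNA against 4.04% and 4.05% in the other PANC-1 DMSO libraries. The THZ1 changes of the tested members in PANC-1 are given with and without it, and other results without it where stated. It also entered the spread that limma shares among all groups. Without it limma called 49.4%, 46.2% and 5.5% of genes higher and 23.8%, 25.2% and 1.31% lower in the 3 lines. The labelled lines differed in their markers: SMAD4, which is deleted in BxPC-3, was at 0.145, 61.5 and 20.3 units with DMSO in the 3 lines, and CDH1, the epithelial cadherin, was at 298 in BxPC-3 and at 0.179 and 3.31 in the other lines, where the mesenchymal marker VIM was at 1413 and 1372 against 12.3 in BxPC-3. Among the epithelial keratins, KRT7 and KRT19 were also highest in BxPC-3 with DMSO, at 1976 and 1469. KRT8 and KRT18 went the other way, at 703 and 169 in BxPC-3 with DMSO. They were at 1424 and 260 in MIA PaCa-2 and at 1912 and 212 in PANC-1. Of the other cell types a culture could hold, 1 of 3 leukocyte, 1 of 2 endothelial and 3 of 4 fibroblast markers had a row. The acinar markers PRSS1, CPA1 and CELA3A had none, nor had EPCAM, CDH2 and CDKN2A. Every row held at least 1 recovered read in each of the 18 libraries. A gene without a read in some library thus has no row and is not part of the shares of all genes. The leukocyte marker CD14 lay between 0.444 and 2.65 in group mean, the endothelial marker VWF between 0.348 and 2.54, and the 3 fibroblast markers summed to between 10.0 and 94.4, being 51.3 with DMSO and 94.4 with THZ1 in MIA PaCa-2, 10.0 and 15.1 in BxPC-3, and 38.3 and 26.3 in PANC-1. Their part in the members' responses was not tested. Nothing in bulk RNA separates fewer cells from less RNA per cell.

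EGR1, the zinc finger factor that serves as a general readout of growth factor signalling, went in different directions in the 3 lines. In BxPC-3 its level was 139.9, 138.8 and 136.9 units with DMSO and 111.9, 125.3 and 138.9 with THZ1, and the groups overlapped. In MIA PaCa-2 it was 163.9, 197.0 and 173.0 with DMSO and 547.5, 549.2 and 494.3 with THZ1. In PANC-1 it was 117.8, 59.2 and 59.7 with DMSO and 33.4, 28.2 and 31.2 with THZ1. Every MIA PaCa-2 library with THZ1 thus lay above every one with DMSO, and every PANC-1 library with THZ1 below. The log2 fold changes in the 3 lines were -0.15, 1.57 and -1.25, each with SE 0.19. Relative to the median gene they were -0.40, 1.38 and -1.18. Scaled to the ERCC they were -1.33, 0.28 and -1.53. There the MIA PaCa-2 groups overlapped, with 267, 354 and 317 for DMSO and 318, 443 and 384 for THZ1, and the BxPC-3 groups no longer did, with 184, 174 and 203 for DMSO and 69.6, 68.1 and 84.5 for THZ1. With equal sums the changes were -0.87, 0.93 and -1.25. The PANC-1 value was -0.93 without DMSO replicate 1, the library with the highest EGR1 of that line.

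IER2, a nuclear protein of the IER family, was higher with THZ1 in all 3 lines on the deposited scale, by an amount that differed by line. In BxPC-3 its level was 23.9, 25.3 and 27.9 with DMSO and 124.7, 134.6 and 127.3 with THZ1. In MIA PaCa-2 it was 50.8, 50.1 and 48.8 with DMSO and 132.6, 117.9 and 115.2 with THZ1. In PANC-1 it was 33.3, 33.8 and 27.7 with DMSO and 55.4, 37.7 and 48.9 with THZ1. The groups did not overlap in any line, and the THZ1 levels of BxPC-3 and MIA PaCa-2 overlapped although their DMSO levels did not. The log2 fold changes were 2.28, 1.27 and 0.56 (SE 0.12 each, and 0.60 in PANC-1 without DMSO replicate 1), which is 2.03, 1.08 and 0.63 above the median gene. Scaled to the ERCC they were 1.11, -0.01 and 0.28, so that MIA PaCa-2 showed no increase there, while relative to the median gene of that scale IER2 was still higher, by 1.75, 0.84 and 0.59. BxPC-3 is thus the line in which IER2 and EGR1 were furthest apart on the deposited scale.

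**Figure D2:**
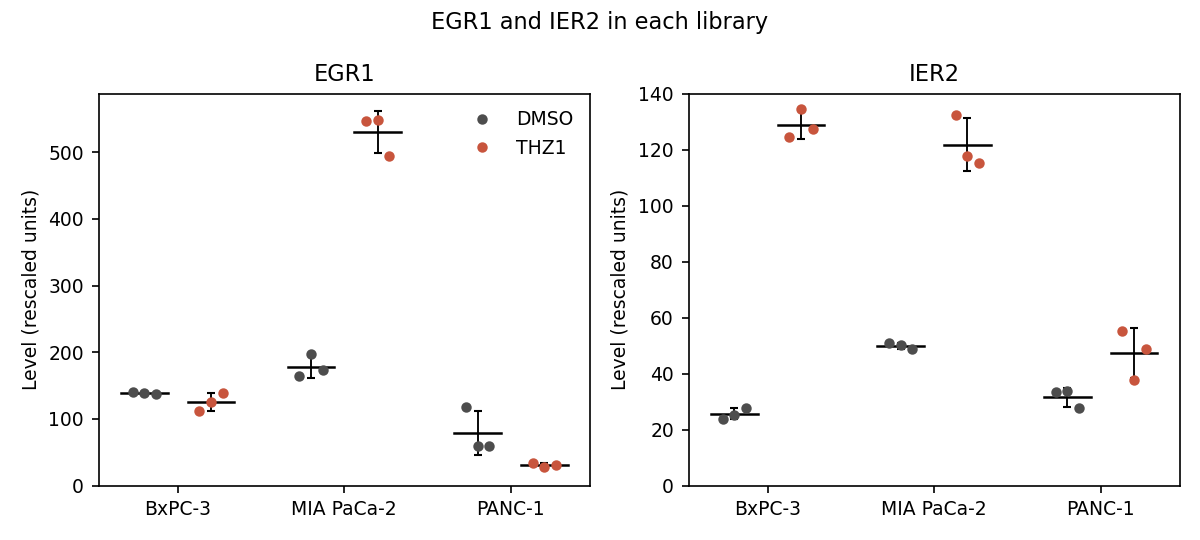
The vertical axes show the level of EGR1 (left) and IER2 (right) in rescaled units over the 18 libraries, each point being a library. Horizontal lines are group means and bars their SD (n = 3). EGR1 was higher with THZ1 in MIA PaCa-2 (178 to 530.3), lower in PANC-1 (78.9 to 30.9) and overlapping in BxPC-3, while IER2 was higher in all 3 lines.

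The 2 other EGR genes were scarce. EGR2, known for its part in myelination and in lymphocytes, had between 3 and 12 reads in every library and group means of 0.291 to 0.83 units, and it failed the filter on low values (1 unit in at least 3 libraries). Without that filter its log2 fold changes were 0.22, 0.38 and -0.39, and limma's adjusted p was 0.467, 0.186 and 0.31. Its highest value, 1.89, was that of PANC-1 DMSO replicate 1, from 12 reads, while the other PANC-1 DMSO libraries held 0.307 and 0.289 and the THZ1 libraries 0.288, 0.33 and 0.255. The PANC-1 value of -0.39 was not refitted without that library.

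EGR3, a factor that EGR1 and EGR2 resemble in their zinc fingers, rested on 2 to 96 reads per library. It rose in BxPC-3 from 1.04, 1.16 and 1.38 units with DMSO to 1.95, 4.03 and 4.20 with THZ1 (log2 fold change 0.96, SE 0.29, limma adjusted p = 0.00927). It also rose in MIA PaCa-2, from 1.17, 1.67 and 0.884 to 8.79, 7.59 and 9.05 (2.09, SE 0.29, limma adjusted p = 1.4e-05). In both lines no THZ1 library was as low as any DMSO library. In PANC-1 the DMSO libraries held 2.05, 0.358 and 0.116 and the THZ1 libraries 0.633, 0.528 and 0.511, with overlap and a change of -0.10 (adjusted p = 0.841). Without DMSO replicate 1 the PANC-1 change was 0.34 (adjusted p = 0.341). With ERCC scaling the BxPC-3 call was lost (0.16, adjusted p = 0.646) and that of MIA PaCa-2 held (1.15, adjusted p = 0.00119). Since these fold changes are on the log2(value + 1) scale, they understate the change of so scarce a transcript.

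IER3, a short-lived regulator of survival under stress, rose steeply in BxPC-3 and MIA PaCa-2 and not in PANC-1. In BxPC-3 it rose from 110.2, 116.0 and 111.5 units to 411, 447 and 423 (log2 fold change 1.91, SE 0.22, limma adjusted p = 1.71e-06). In MIA PaCa-2 it rose from the lowest DMSO level of the 3 lines, 18.4, 16.7 and 21.1, to 92.2, 87.9 and 83.2 (2.18, SE 0.22, limma adjusted p = 5.49e-07). The MIA PaCa-2 level with THZ1 was still below the BxPC-3 level with DMSO. These rises were 1.66 and 1.99 above the median gene, and both held on the ERCC scale (0.73, adjusted p = 0.00384, and 0.92, adjusted p = 0.000426). In PANC-1 the DMSO libraries held 493, 216 and 199.6 and the THZ1 libraries 211, 189 and 192. The high value was that of DMSO replicate 1. The PANC-1 change was -0.49 (limma adjusted p = 0.216) and -0.07 without that library (adjusted p = 0.646). It passed the threshold as a fall on the ERCC scale (-0.77, adjusted p = 0.0188), as it did on the deposited scale without DMSO replicate 3 (-0.72, adjusted p = 0.0332).

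IER5, a partner of the heat shock factor HSF1, rose most in MIA PaCa-2. There it went from 25.5, 25.0 and 24.2 units to 74.1, 67.9 and 64.8 (log2 fold change 1.43, SE 0.16, limma adjusted p = 1.31e-06). In BxPC-3 it went from 86.2, 78.7 and 88.6 to 117.3, 120.3 and 118.8 (0.49, SE 0.16, limma adjusted p = 0.0141). The groups did not overlap in either line. The BxPC-3 change was 0.24 above the median gene and did not hold with other scales: it was -0.24 with equal sums (adjusted p = 0.379) and -0.69 on the ERCC scale, a call in the other direction (adjusted p = 0.0134). The MIA PaCa-2 change was 1.24 above the median gene and 1.01 above it on the ERCC scale, where the change itself was 0.17 (adjusted p = 0.505). In PANC-1 the DMSO libraries held 30.5, 54.2 and 56.4 and the THZ1 libraries 65.2, 57.9 and 64.9, without overlap, for a change of 0.46 (adjusted p = 0.141). Here DMSO replicate 1 was the lowest library, and without it the change was 0.18 (adjusted p = 0.145). Without DMSO replicate 3 it was 0.61 and passed the threshold (adjusted p = 0.0279).

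SRF, the CArG box factor upstream of many immediate early genes, moved little, and in BxPC-3 and MIA PaCa-2 its direction depended on the scale. In BxPC-3 it was 67.5, 69.1 and 71.0 with DMSO and 93.9, 92.8 and 99.1 with THZ1 (log2 fold change 0.45, SE 0.07, limma adjusted p = 2.99e-05). In MIA PaCa-2 it was 127.8, 123.2 and 124.3 with DMSO and 162.9, 151.9 and 162.8 with THZ1 (0.34, SE 0.07, limma adjusted p = 0.00047). The replicates were tight and the groups did not overlap. The changes were 0.20 and 0.16 above the median gene. With equal sums they were -0.27 (adjusted p = 0.00411) and -0.30 (adjusted p = 0.00177), and on the ERCC scale -0.72 (adjusted p = 0.000369) and -0.94 (adjusted p = 1.67e-05), which lies 0.02, 0.00, -0.08 and -0.10 from the median gene of the same scale and line. In PANC-1 the DMSO libraries held 121.1, 112.2 and 104.1 and the THZ1 libraries 118.1, 111.9 and 117.8, with overlap and a change of 0.05 (adjusted p = 0.681), or 0.10 without DMSO replicate 1 (adjusted p = 0.32).

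NR4A1, an orphan nuclear receptor induced by many stimuli, moved in opposite directions in BxPC-3 and MIA PaCa-2. It rose in BxPC-3 from 2.80, 2.62 and 2.59 units to 5.45, 8.06 and 7.51 (log2 fold change 1.11, SE 0.32, limma adjusted p = 0.00689). It fell in MIA PaCa-2 from 7.89, 9.49 and 9.61 to 4.21, 5.09 and 4.21 (-0.86, SE 0.32, limma adjusted p = 0.0309). The groups did not overlap in either line, and the libraries held between 23 and 195 reads of it. The fall was larger on the ERCC scale (-1.96, adjusted p = 7.04e-06), where the BxPC-3 rise was no longer called (0.14, adjusted p = 0.7). Relative to the median gene NR4A1 stood at 0.86, -1.05 and -0.14 in the 3 lines on the deposited scale. Relative to the median gene of the ERCC scale it stood at 0.78, -1.12 and -0.09. Most of the shift of NR4A1 between these scales was thus shared with the median gene. The MIA PaCa-2 call was lost without any 1 of 4 libraries: DMSO replicate 2 (adjusted p = 0.0778), DMSO replicate 3 (0.0801), THZ1 replicate 1 (0.0767) or THZ1 replicate 3 (0.0778). In PANC-1 the DMSO libraries held 6.95, 1.38 and 1.33 and the THZ1 libraries 2.07, 1.85 and 2.23, for a change of -0.21 (adjusted p = 0.683). The high library was again DMSO replicate 1, and without it both remaining DMSO libraries lay below all THZ1 libraries (0.37, adjusted p = 0.13).

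**Figure D3:**
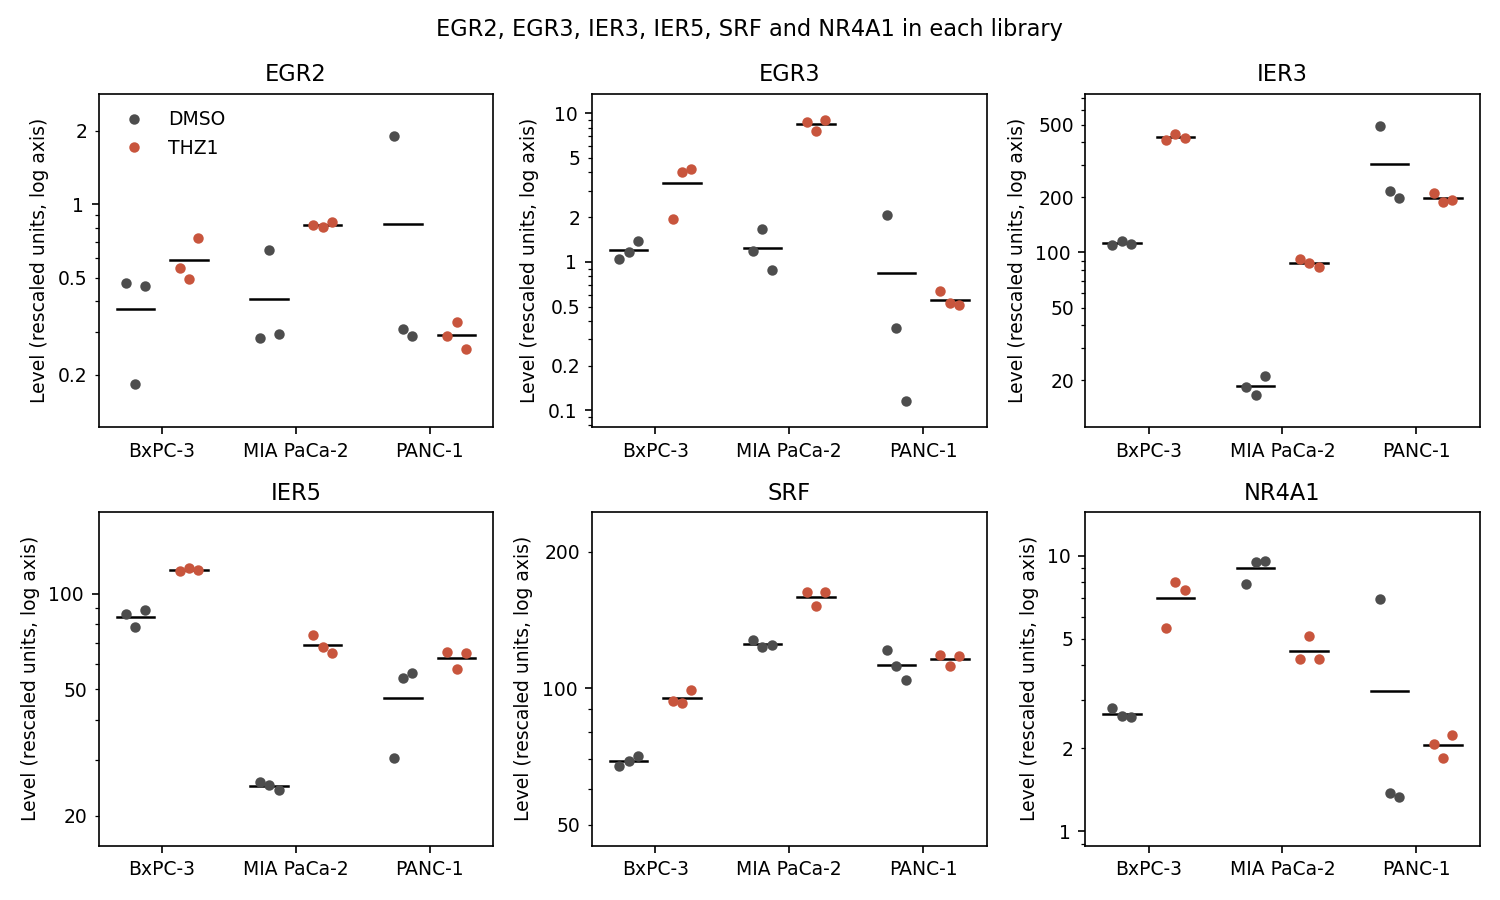
The vertical axes show the level in rescaled units (log axis) of EGR2, EGR3, IER3, IER5, SRF and NR4A1 over the 18 libraries. Points are libraries and horizontal lines group means. With THZ1, BxPC-3 and MIA PaCa-2 held more IER3 and EGR3, NR4A1 moved in opposite directions in those lines, and 1 PANC-1 DMSO library lay far from the other 2 for EGR2, EGR3, IER3, IER5 and NR4A1.

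Counted over the 5 members tested (EGR3, IER3, IER5, SRF and NR4A1), all 5 rose in BxPC-3, where limma called 40.0% of all genes tested higher and 18.9% lower. In MIA PaCa-2 4 rose and NR4A1 fell, against 36.5% of all genes called higher and 19.8% lower. In PANC-1 0 of 5 were called by limma, against 0.274% of all genes called higher and 0.228% lower. There 2 of the 5, IER3 and IER5, had an unadjusted p under 0.05, and 0 were called by edgeR with TMM, by edgeR with the authors' divisors or by DESeq2. The median change of the 5 was 0.96, 1.43 and -0.10 in the 3 lines, beside 0.25, 0.19 and -0.07 over all genes. With libraries scaled to the ERCC 1 rose and 2 fell in BxPC-3, against 1.35% and 59.1% of all genes. In MIA PaCa-2 2 rose and 2 fell on that scale, against 1.47% and 73.1%, and in PANC-1 1 fell, against 0.0391% called higher and 18.2% called lower. IER3 in BxPC-3, and IER3 and EGR3 in MIA PaCa-2, were the calls of a rise on both scales.

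**Figure D4:**
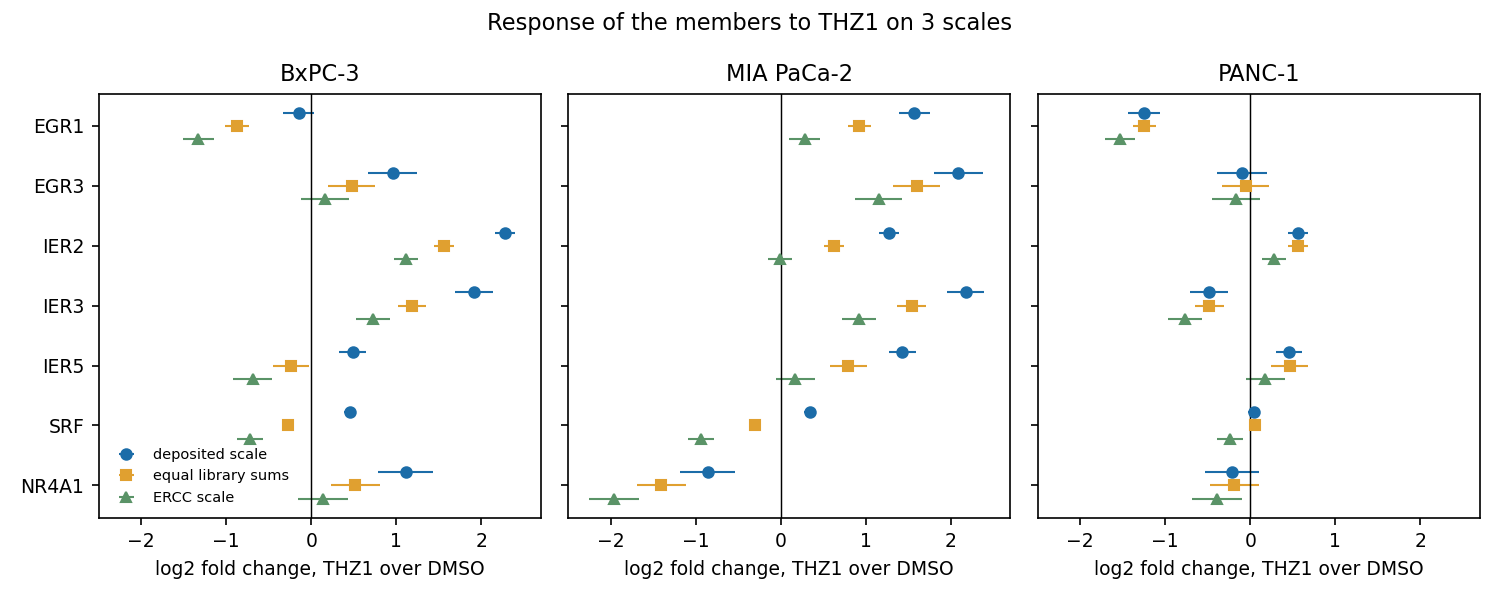
The horizontal axes show the log2 fold change of THZ1 over DMSO in each line for 7 members, with bars as SE, for libraries on the deposited scale, at equal sums and on the ERCC scale. In BxPC-3 and MIA PaCa-2 all 7 values shift down from the deposited to the ERCC scale, which takes SRF from 0.45 to -0.72 in BxPC-3 and leaves IER3 above 0 in both lines.

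The difference of the response between lines was tested on its own. The limma F-test over the 3 lines called all 5 members tested: IER3 (adjusted p = 1.09e-05), EGR3 (0.00143), IER5 (0.0026), NR4A1 (0.00571) and SRF (0.00661). This stands beside 50.6% of all genes tested. For IER3 the PANC-1 response minus that of BxPC-3 was -2.40 log2 units (limma adjusted p = 2.52e-05) and minus that of MIA PaCa-2 -2.66 (adjusted p = 1.83e-05), while MIA PaCa-2 minus BxPC-3 was 0.26 (SE 0.31, adjusted p = 0.675). Without PANC-1 DMSO replicate 1 these IER3 differences were -1.99, -2.25 and 0.26, and the last was then called (SE 0.10, adjusted p = 0.0391). For EGR3 the clearest difference was between PANC-1 and MIA PaCa-2 (-2.19, adjusted p = 0.00071, and -1.75 without PANC-1 DMSO replicate 1). The EGR3 response in MIA PaCa-2 minus that in BxPC-3 was 1.13 and was not called (SE 0.41, adjusted p = 0.0793), but it was called without that library (SE 0.25, adjusted p = 0.00126). PANC-1 minus BxPC-3 was -1.06 for EGR3 (adjusted p = 0.0475) and -0.62 without the library (adjusted p = 0.0528). For NR4A1 the MIA PaCa-2 response minus that of BxPC-3 was -1.97 (adjusted p = 0.00785). The NR4A1 difference was -2.10 on the ERCC scale (adjusted p = 0.00302), so that it held on both. NR4A1 in PANC-1 minus BxPC-3 was -1.32 (adjusted p = 0.0269), or -0.74 without PANC-1 DMSO replicate 1 (adjusted p = 0.00271), and PANC-1 minus MIA PaCa-2 was 0.65 (adjusted p = 0.274), called without that library (1.23, adjusted p = 1.78e-05).

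For IER5 and SRF the differences depended on the scale. The IER5 response in MIA PaCa-2 exceeded that in BxPC-3 by 0.94 (adjusted p = 0.00964), and PANC-1 minus MIA PaCa-2 was -0.98 (adjusted p = 0.00302). PANC-1 minus BxPC-3 was -0.03 for IER5 (adjusted p = 0.916), and -0.31 and called without PANC-1 DMSO replicate 1 (adjusted p = 0.00779). The PANC-1 minus MIA PaCa-2 difference was 0.01 (SE 0.32, adjusted p = 0.988) when libraries were scaled to the ERCC, and the MIA PaCa-2 minus BxPC-3 difference 0.86 (adjusted p = 0.117). The SRF response in PANC-1 minus that in BxPC-3 was -0.41 (adjusted p = 0.00332) and minus that in MIA PaCa-2 -0.30 (adjusted p = 0.0234), but on the ERCC scale the last difference was 0.71 (adjusted p = 0.0124). With TMM factors, DESeq2 factors, edgeR with TMM and DESeq2 the SRF response was not called different between lines (adjusted p = 0.993, 0.949, 0.995 and 0.907). For EGR1 and IER2, described without a test, the responses in MIA PaCa-2 and BxPC-3 differed in opposite senses: MIA PaCa-2 minus BxPC-3 was 1.72 for EGR1 and -1.01 for IER2. Scaled to the ERCC these differences were 1.61 and -1.12.

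With DMSO alone the lines already differed in most members. The limma F-test among the DMSO groups called IER3 (adjusted p = 3.34e-10), SRF (1.53e-08), IER5 (1.61e-07) and NR4A1 (0.000526), 4 of 5 tested, beside 79.1% of all genes. EGR3 was not called (adjusted p = 0.327), and was called without PANC-1 DMSO replicate 1 (adjusted p = 0.000613). IER3 had the widest span: PANC-1 lay 1.29 log2 units above BxPC-3 (adjusted p = 8.75e-05, and 0.88 without PANC-1 DMSO replicate 1), and MIA PaCa-2 minus BxPC-3 was -2.53 (adjusted p = 3.17e-08). IER5 ran in another order, with BxPC-3 above PANC-1 and PANC-1 above MIA PaCa-2 by 0.84 (adjusted p = 0.000211). SRF was lowest in BxPC-3, with MIA PaCa-2 0.84 above it (adjusted p = 1.21e-08), while PANC-1 minus MIA PaCa-2 was -0.16 and not called (adjusted p = 0.0614). That SRF difference was called without PANC-1 DMSO replicate 1 (-0.21, adjusted p = 0.0023), on the ERCC scale (-0.45, adjusted p = 0.0142) and with equal sums (-0.17, adjusted p = 0.0445), and not with TMM factors (-0.10, adjusted p = 0.232). NR4A1 was highest in MIA PaCa-2, 1.44 above BxPC-3 (adjusted p = 0.000864), while PANC-1 minus BxPC-3 was -0.06 and not called (adjusted p = 0.894). Without PANC-1 DMSO replicate 1 that NR4A1 difference was -0.64 and called (adjusted p = 0.000476). DMSO levels of EGR1, given without a test, were 178 ± 17.1 in MIA PaCa-2, 139 ± 1.51 in BxPC-3 and 78.9 ± 33.6 in PANC-1 (SD, n = 3), and those of IER2 were 49.9 ± 1.03, 25.7 ± 2.03 and 31.6 ± 3.38.

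Levels can be compared between genes once divided by transcript length. Per kilobase of the principal GENCODE 29 transcript, EGR1 was the EGR transcript that dominated: with DMSO it stood at 44.1 ± 0.481, 56.7 ± 5.44 and 25.2 ± 10.7 rescaled units per kb in the 3 lines (SD, n = 3). EGR2 lay between 0.126 and 0.28 per kb in the same groups and EGR3 between 0.194 and 0.287. In PANC-1 these values, 0.28 for EGR2 and 0.194 for EGR3, rested on DMSO replicate 1, and without it they were 0.1 and 0.0546. The EGR1 value of PANC-1 was 18.95 without that library. With THZ1 in MIA PaCa-2 EGR3 reached 1.96 ± 0.18 per kb and EGR1 169 ± 9.95. Among the IER genes IER3 stood highest per kb in BxPC-3 (90.5 ± 2.43 with DMSO, 343 ± 14.5 with THZ1). It also did in PANC-1 (243 ± 132 with DMSO, or 167 without DMSO replicate 1). In MIA PaCa-2 with DMSO IER2 (17.0 ± 0.35) and IER3 (15.1 ± 1.80) were level within their SD.

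In gene structure the EGR and IER members are compact. The principal transcripts of IER2 and IER5 have 1 exon, those of EGR1, EGR2, EGR3 and IER3 have 2, SRF has 7 and NR4A1 has 8. Over the 12742 tested genes that matched GENCODE 29 (83.0%), the median was 9 exons, and 11.5% had at most 2. Genes with at most 2 exons had a median log2 fold change of 0.32, 0.33 and -0.12 in the 3 lines, against 0.25, 0.17 and -0.04 for the rest. Of the tested members with at most 2 exons, EGR3 was at 0.96, 2.09 and -0.10 in the 3 lines and IER3 at 1.91, 2.18 and -0.49. IER5 was at 0.49, 1.43 and 0.46. Whether gene structure bears on these responses was not tested.

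The cofactors of SRF were followed as 1 list, and of 6 genes MYOCD had no row. In BxPC-3 0 of 5 were called by limma, against 40.0% of all genes higher and 18.9% lower, with 0 at an unadjusted p under 0.05. There edgeR with TMM called 3, edgeR with the authors' divisors 0 and DESeq2 2. In MIA PaCa-2 1 rose and 2 fell, against 36.5% and 19.8% of all genes. ELK1, an ETS-family cofactor, rose by 0.33 (limma adjusted p = 0.0011, ERCC -0.96), and MKL2 and MKL1, the MRTF cofactors, fell, MKL2 by 1.03 (adjusted p = 0.00302) and MKL1 by 0.67 (adjusted p = 0.00158). MKL2 went from 17.4 ± 1.75 to 8.07 ± 1.41 and MKL1 from 26.5 ± 0.29 to 16.3 ± 0.266 (SD, n = 3). The list's median in the 3 lines was -0.05, -0.14 and 0.09. All 5 fell in both of these lines when libraries were scaled to the ERCC, against 59.1% and 73.1% of all genes. On that scale 1 fell in PANC-1, against 18.2% of all genes. In PANC-1 limma called 0 of 5, with 1 at an unadjusted p under 0.05, edgeR called 0 and DESeq2 1. Without PANC-1 DMSO replicate 1 limma called 1 lower in BxPC-3, against 23.8% of all genes. In MIA PaCa-2 limma then called 2 higher and 2 lower, against 46.2% and 25.2%.

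Of 16 cytoskeletal genes known as SRF and MRTF targets, 11 rose and 1 fell in BxPC-3, and 12 rose and 2 fell in MIA PaCa-2, beside 40.0% and 36.5% of all genes called higher and 18.9% and 19.8% lower. Their medians were 0.77 and 0.67. FLNA, which crosslinks actin filaments, rose by 1.21 and 1.10 in the 2 lines (limma adjusted p = 1.25e-06 and 4.86e-06), and TPM2, a tropomyosin, by 1.18 and 1.08. FHL2, a LIM protein that binds SRF, fell by 0.45 and 0.40 (adjusted p = 9.77e-05 and 0.000316). With equal sums 4 rose and 2 fell in each line, against 9.34% and 9.48% of all genes higher and 42.8% lower in both. On the ERCC scale 0 rose and 4 fell in BxPC-3 and 0 rose and 10 fell in MIA PaCa-2, against 59.1% and 73.1% of all genes lower. On that scale 2 fell in PANC-1, against 18.2%. FLNA then stood at 0.02 for BxPC-3 and -0.20 for MIA PaCa-2. In PANC-1 0 of 16 were called by limma, with 5 at an unadjusted p under 0.05, 0 by edgeR and 2 by DESeq2. Without DMSO replicate 1 limma called 3 higher there, against 5.5% of all genes.

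Of 9 relatives and partners of the members, 2 rose and 2 fell in BxPC-3 and 3 rose and 2 fell in MIA PaCa-2, beside 40.0% and 36.5% of all genes higher and 18.9% and 19.8% lower. On the ERCC scale 1 rose and 7 fell in BxPC-3, 0 rose and 6 fell in MIA PaCa-2 and 0 rose and 3 fell in PANC-1, against 59.1%, 73.1% and 18.2% of all genes lower. NAB2, the corepressor that binds EGR1 and is itself an EGR target, fell from 29.4 ± 2.78 to 6.48 ± 0.928 in BxPC-3 (log2 fold change -2.03, SE 0.11, limma adjusted p = 6.87e-10) and from 41.7 ± 1.68 to 29.3 ± 1.36 in MIA PaCa-2 (-0.50, adjusted p = 0.0013). EGR1 was higher with THZ1 in the second of these lines and not in the first. IER5L, the paralog of IER5, rose by 1.83 and 1.65 in these lines (adjusted p = 1.47e-05 and 4.85e-05), and was at 0.66 (adjusted p = 0.0124) and 0.38 (adjusted p = 0.114) on the ERCC scale. HSF1, the heat shock factor that IER5 binds, rose by 0.73 and 0.69, and was at -0.45 and -0.59 on the ERCC scale. RXRA, a nuclear receptor that pairs with NR4A1, fell by 0.45 and 0.80. In PANC-1 0 of 9 were called by limma, with 1 at an unadjusted p under 0.05, and 0 by edgeR or DESeq2. Without PANC-1 DMSO replicate 1 limma called 1 higher there, against 5.5% of all genes. The list's medians were 0.16, 0.14 and -0.21.

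Other immediate early genes, 34 in all, went both ways. In BxPC-3 12 rose and 13 fell, against 40.0% and 18.9% of all genes, with a median of -0.16 beside 0.25 over all genes. On the ERCC scale 3 rose and 25 fell there, against 1.35% and 59.1% of all genes. JUNB, an AP-1 subunit, rose from 109.9 ± 3.53 to 530.1 ± 25.4 (log2 fold change 2.26, limma adjusted p = 1.5e-09), and HBEGF, an EGFR ligand, by 1.75. KLF4, a zinc finger factor, fell by 1.41 and DUSP6, a phosphatase that acts on ERK, by 1.18. In MIA PaCa-2 18 rose and 8 fell (median 0.37), against 36.5% and 19.8% of all genes. On the ERCC scale 3 rose and 23 fell there, against 1.47% and 73.1% of all genes. JUNB rose by 2.39 and CTGF, a matricellular protein, by 2.32, both also called higher on the ERCC scale (1.11 and 1.05), while FOSL1 and KLF2 fell by 0.93 and 0.91. In PANC-1 0 rose and 6 fell, with 16 of 34 at an unadjusted p under 0.05, beside 0.274% and 0.228% of all genes. On the ERCC scale 0 rose and 13 fell in PANC-1, against 18.2% of all genes lower. Called there were the AP-1 subunits FOSB, from 53.3 ± 27.5 to 12.3 ± 0.947 (-1.93, adjusted p = 0.0011), and FOS, from 29.8 ± 1.11 to 10.6 ± 1.91 (-1.43, adjusted p = 9.16e-06). Also called lower were DUSP6 (-0.55, adjusted p = 0.0472) and JUN (-0.39, adjusted p = 0.0355). FOS and FOSB were lower in PANC-1 with THZ1, as EGR1 was. With all libraries edgeR with TMM called 4 of the 34 in PANC-1, edgeR with the authors' divisors 6 and DESeq2 9. Limma without PANC-1 DMSO replicate 1 called 2 higher and 8 lower there, against 5.5% and 1.31% of all genes.

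In the ERK cascade, 7 of 13 genes rose and 1 fell in BxPC-3, beside 40.0% and 18.9% of all genes. The same counts were found in MIA PaCa-2, beside 36.5% and 19.8%. The one that fell was EGFR in both, by 0.62 and 0.73 (limma adjusted p = 0.0168 and 0.00654). MAP2K1, the kinase directly upstream of ERK, rose by 1.32 in BxPC-3, and its paralog MAP2K2 by 0.75 there and by 1.16 in MIA PaCa-2. The medians were 0.75 and 0.48, and -0.44 and -0.80 on the ERCC scale. There 0 rose and 4 fell in BxPC-3 and 0 rose and 11 fell in MIA PaCa-2, against 59.1% and 73.1% of all genes lower. On the ERCC scale 2 fell in PANC-1, against 18.2%. In PANC-1 0 of 13 were called by limma, with 2 at an unadjusted p under 0.05, and 0 by edgeR or DESeq2. Without PANC-1 DMSO replicate 1, 12 rose and 1 fell in BxPC-3, against 49.4% and 23.8% of all genes, and 0 were called in PANC-1.

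The genes whose levels ran most like each member's over the 18 libraries were found among 7179 genes with a mean of at least 20 units, by Pearson's r of log2(value + 1). The libraries of a group share line, treatment and scale, so that r mostly reflects 6 group levels, and it is given as a description. For EGR1 these were TMCO6 (0.965), VPS25 (0.952) and MRPS2 (0.947). For IER2 they were RPS27A (0.976), PSMD2 (0.974) and EEF1B2 (0.973), and for IER3 NABP2 (0.989) and RAB1B (0.985). IER5 ran most like HSPA1A (0.973), an inducible HSP70 gene that has a near-identical copy, then POP4 (0.955) and CSTF2 (0.952). SRF ran most like TSPYL2 (0.994), VAT1 (0.99) and RPL13P12 (0.986), the last a pseudogene whose reads cannot be told from those of its parent with certainty. For EGR3 the genes were SLC6A8 (0.96), CALM3 (0.952) and DUS1L (0.951), and for NR4A1 DIS3L2 (0.911), CWC25 (0.886) and EPS15L1 (0.869). For EGR2, with its few reads, they were AC079949_1 (0.904), AL161626_1 (0.902) and Y_RNA (0.88), which dropped to 0.806, 0.758 and 0.717 without PANC-1 DMSO replicate 1. For the other 7 members r changed little without that library, with HSPA1A at 0.984 for IER5 and TMCO6 at 0.972 for EGR1.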

How the data were processed

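Polyadenylated RNA was sequenced from 18 libraries, with stranded libraries and ERCC spike-ins added to the extracted RNA, per the labels' protocols. The submitters' processing notes name STAR and hg19; the counting program, annotation and filters are, for these samples, not given in the sources used here. Each deposited value is a signal that proved to be a read count over an integer fixed for its library: 100% of the products lay within 0.001 of an integer. The authors' deposited log2 columns average the lines and were not used. Values were multiplied by 17.6795, and limma-trend was run on log2(value + 1) in R 4.3.3 with limma 3.58.1, using 6 group means, 12 residual degrees of freedom, 15354 genes (at least 1 unit in 3 libraries) and Benjamini-Hochberg adjustment at 0.05. The p-values measure the spread between these cultures only, with 3 per group.

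The members, lists and tests were chosen with earlier results of these data known. Genes were named by rule: all members, the 2 highest and 2 lowest called changes of each list and line with a mean of at least 5, and the 3 genes most alike each member. EGR4, NAB1, NR4A2, NR4A3 and PPP2R2A are counted in their list only. Members sharing a line share its libraries. Alternatives were other scales, filters and pseudocounts, no trend, the replicate block, the compared groups alone, each library left out, and, on recovered reads, DESeq2 1.42.0, which called 8700, 8374 and 691 genes in the 3 lines, and edgeR 4.0.16 with TMM, which called 8502, 8219 and 19. edgeR with the authors' divisors was added after seeing the data and called 9270, 8738 and 40. The main script was tested on simulated data. Promoters came from RefSeq (GRCh38.p14), transcripts from GENCODE 29. Recovered reads carry no molecular identifiers. One gene among those most like IER3 is not reported here.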

Additional observations from a re-analysis of the deposited data

Results flagged for a closer look

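The responses to THZ1 of 5 members differed between the 3 lines by limma's F-test of that difference, with adjusted p = 1.09e-05 for IER3, 0.00143 for EGR3, 0.0026 for IER5, 0.00571 for NR4A1 and 0.00661 for SRF. The same test called 50.6% of all genes tested. The IER3 rise in BxPC-3 and MIA PaCa-2 (1.91 and 2.18 on the log2 scale) stood beside a PANC-1 value of -0.49, and over all alternatives its adjusted p for the difference lay between 6.81e-22 and 0.000132. For NR4A1 the responses were 1.11, -0.86 and -0.21, with a range of 3.01e-08 to 0.0177. For EGR3 they were 0.96, 2.09 and -0.10 (1.89e-05 to 0.0266), and for IER5 0.49, 1.43 and 0.46 (7.13e-10 to 0.0485). For SRF the range was 0.0011 to 0.995, so that its difference depends on the scale of the libraries.

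On the deposited scale EGR1 was higher in all 3 THZ1 libraries of MIA PaCa-2 than in any DMSO library of that line, and lower in all 3 of PANC-1, and the log2 responses lay 2.82 apart. On the ERCC scale the MIA PaCa-2 groups overlapped, and PANC-1 minus MIA PaCa-2 was -1.82. This difference was not tested, because the response of EGR1 by line had entered the choice of the members.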

How the results depend on the processing

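In BxPC-3 5 of 5 members were called, all higher, against 40.0% of all genes. With equal sums 1 was called higher and 1 lower, against 9.34% and 42.8% of all genes. On the ERCC scale 1 was called higher and 2 lower, against 1.35% and 59.1%. The count in either direction was 3 under each of TMM factors, DESeq2 factors and edgeR with TMM. Of all genes, edgeR with TMM called 8502 in BxPC-3, where limma tested 15354. A filter on a mean of 5 left 3 members in BxPC-3, and all 3 were called. In MIA PaCa-2 that filter left 3, all called, as for the difference between lines (3 of 3). Shares of all genes are not given for TMM factors, DESeq2 factors or that filter, so these member counts stand without a background. In PANC-1 the count of 0 was 1 on the ERCC scale, a fall, against 18.2% of all genes lower. With each library left out in turn the counts were 4 to 5 for BxPC-3, 4 to 5 for MIA PaCa-2, 0 to 2 for PANC-1 (2 without PANC-1 DMSO replicate 3), 5 to 5 for the difference between lines, and 4 to 5 for DMSO levels. The IER5 call in BxPC-3 was lost without BxPC-3 DMSO replicate 2 (limma adjusted p = 0.0534). Directions turned on the ERCC scale for IER2 in MIA PaCa-2 (-0.0091), IER5 in BxPC-3 (-0.69) and SRF in both lines (-0.72 and -0.94), and with equal sums for IER5 in BxPC-3 (-0.24) and SRF in both lines (-0.27 and -0.30); these scales lower every value of a THZ1 library in those lines. Among values that were not called, the PANC-1 change turned for EGR3 with a pseudocount of 0.25 (0.0105), with edgeR and TMM (0.0758) and without PANC-1 DMSO replicate 1, for NR4A1 without that library, and for SRF on the ERCC scale (-0.24) and without PANC-1 DMSO replicate 3. With each library left out in turn these changes ran from -0.39 to 0.34 for EGR3, from -0.51 to 0.37 for NR4A1 and from -0.008 to 0.10 for SRF. Of the other alternatives to members' log2 changes, 236 stayed the same, 25 moved, 16 lost a call and 1 gained one. With a library left out, 368 stayed the same, 5 lost a call and 2 gained one. For tested members, staying the same means that direction and call were kept. EGR1 and IER2 have no call. For them it means the same direction and a shift smaller than the SD between replicates, and the 25 that moved were larger shifts of these genes. Same-numbered libraries did not deviate together in every line (r of residuals 0.086, 0.022 and -0.003 for BxPC-3, 0.14, 0.067 and 0.017 for MIA PaCa-2, 0.45, 0.30 and -0.031 for PANC-1). Different-numbered ones in PANC-1 ran from -0.51 to 0.50. Deviations within a group of 3 offset each other, so that these r cannot show whether the libraries were paired. The main fit treats them as unpaired. The replicate block left the counts at 5, 5 and 0 in the 3 lines and 5 for the difference between lines; no block can be used for DMSO levels between lines. Within the lists it moved 4 counts of calls by over 1.5 times, among them PANC-1 immediate early genes called lower (6 to 2). Sample weights could not be fitted. Depth limits EGR2 (3 to 12 reads) and EGR3 (2 to 96 reads).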
